A study of Mus musculus with 9 samples.

Results

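Intermediate filaments are rope-like protein polymers of the cytoplasm, and lamins are their relatives beneath the inner nuclear membrane. The 10 genes described here were taken by symbol from the 23420 rows of the expression table: Gfap, Vim, Nes, Synm, Nefl, Nefm, Ina, Lmna, Lmnb1 and Lmnb2. All 10 symbols were found, and all 10 passed the filter on low values that left 13839 genes to test. The cells were neural stem cells grown from the hippocampus of wild-type C57BL/6J mice that were 2 days old. In every group bFGF and EGF, the growth factors that keep such cells dividing, had been withdrawn from the medium to promote differentiation. The groups differed in the agent added to that medium, which was 3 µM NAT (a small molecule that the labels describe as new), 3 µM P7C3-A20 (a small molecule known for favouring neurogenesis) or the DMSO vehicle. Each group had 3 libraries, named biological replicates in the labels. The labels used here do not say how long the cells were treated or how many animals were pooled, so the p-values speak only for the spread among the 9 libraries, which may in part be technical. Since RNA came from whole cultures, fewer cells of a type and less RNA per cell cannot be told apart.

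Vimentin (Vim) and nestin (Nes) build the filaments of neural stem and progenitor cells, and glial fibrillary acidic protein (Gfap) is the filament protein best known from astrocytes and from radial-glia-like stem cells of the hippocampus. Synemin (Synm) is a large filament protein that copolymerizes with vimentin-type proteins. The neurofilament light and medium chains (Nefl, Nefm) and alpha-internexin (Ina) form the filaments of neurons, with alpha-internexin typically present early in neuronal differentiation. Lmna encodes the A-type lamins, and Lmnb1 and Lmnb2 encode the B-type lamins. During brain development B-type lamins dominate the lamina of neural progenitors and A-type lamins are sparse.

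The bases just before the start site are shown for the 4 filament genes of progenitors and glia, since these genes held both the highest and the lowest level among the 10. The sequences are from RefSeq promoters on GRCm38.p6, and each gives the 120 bases before the start, 5′ to 3′ on the gene's strand. Capitals mark matches to 3 promoter motifs, each searched on both strands. The TATA box was spelled TATAAA. The CCAAT box was spelled as in its name. The GC box was spelled GGGCGG.
Vim, chr2:13574191-13574310, plus strand: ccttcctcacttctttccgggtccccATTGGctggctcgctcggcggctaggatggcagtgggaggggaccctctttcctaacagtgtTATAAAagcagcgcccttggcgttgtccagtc
Gfap, chr11:102897201-102897320, minus strand: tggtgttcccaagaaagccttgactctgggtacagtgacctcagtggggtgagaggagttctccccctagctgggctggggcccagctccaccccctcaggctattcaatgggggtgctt
Nes, chr3:87970973-87971092, plus strand: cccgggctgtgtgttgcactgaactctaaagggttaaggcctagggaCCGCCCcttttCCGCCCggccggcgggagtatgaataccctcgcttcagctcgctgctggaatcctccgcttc
Synm, chr7:67759743-67759862, minus strand: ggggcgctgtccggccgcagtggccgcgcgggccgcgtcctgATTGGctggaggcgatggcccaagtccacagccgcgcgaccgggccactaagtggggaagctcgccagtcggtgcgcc
The Vim window held TATAAA with its first base at position -32, counted from the start, and a reverse-strand CCAAT at position -94. The Gfap window held none of the 3 motifs and 0 CpG dinucleotides. The Nes window held 2 reverse-strand GC boxes and 9 CpG dinucleotides, and the Synm window held a reverse-strand CCAAT, 16 CpG dinucleotides and 75% G or C. Of 32851 mouse windows of the same length, 6.34% held TATAAA, 21.3% held CCAAT and 26.5% held GGGCGG. A match of letters is a description of the window, and the RNA data do not test any of these motifs. Promoter entries of a single chromosome were left out, and the remaining entries matched 7 of the 10 genes.

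The libraries held 11387644 to 16821164 reads, recovered from the steps of the TPM values, and the P7C3-A20 libraries were the deepest (at least 15291621 reads each). TPM, in which each library's values sum to 1000000, is scaled for gene length, so levels can be set side by side between genes. Genes of the expected cells were high in all 9 libraries: 8 neural progenitor markers, Fabp7 and Sox2 among them, summed to between 13441 and 15511 TPM, and 8 astrocyte markers summed to between 6282 and 7181 TPM. Slc1a3 was in both of these lists. The 8 oligodendrocyte lineage markers, Olig1 and Olig2 among them, summed to between 3092 and 3777 TPM. The 8 neuron markers summed to between 719.5 and 783 TPM. Map2 made up most of the neuron sum, at 583 to 653 TPM. Tubb3, Elavl3, Dcx and Snap25 lay between 12.4 and 51.1 TPM, and Rbfox3, Syt1 and Stmn2 between 0.491 and 2.55 TPM. Among markers of cell types from outside the neural lineage, Cx3cr1 of microglia, Cldn5 of endothelium, Lum of fibroblasts and the haemoglobin genes Hba-a1 and Hba-a2 were listed at 0 throughout.

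Levels of the 10 genes spanned more than 3 orders of magnitude and their means had the same order in every group. Averaged over the 9 libraries the order was Vim, Gfap, Lmnb1, Nes, Ina, Lmnb2, Lmna, Nefm, Nefl and Synm. Vim ranked 10 among the 13839 tested genes by mean TPM and made up 73.1% of the summed TPM of the 10 genes. Gfap ranked 119 and made up 17.2%, Lmnb1 ranked 738 and made up 4.36%, and Nes ranked 857 and made up 3.97%. The remaining 6 genes lay between rank 6960 (Ina) and rank 12581 (Synm). Neighbours in this order whose ranges over the 9 libraries overlapped were Lmnb1 and Nes, Ina and Lmnb2, and Nefm and Nefl. The other neighbours stood apart in range: in DMSO the mean level of Vim was 4.62 times that of Gfap, Gfap was 3.59 times Lmnb1, and Nes was 7.95 times Ina.

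**Figure D1:**
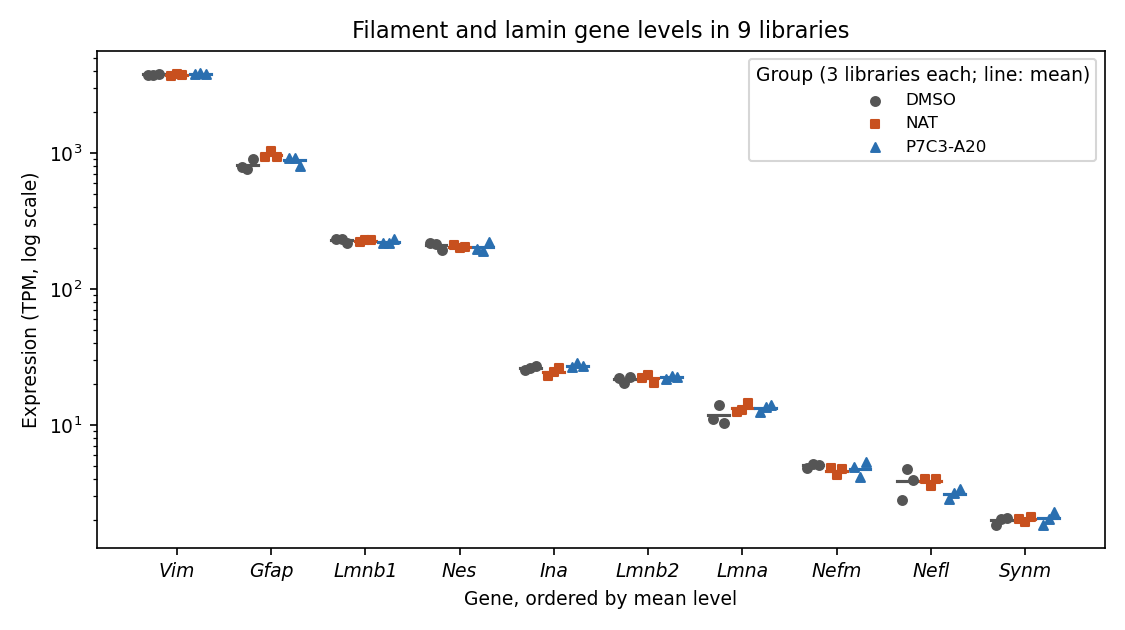
Level of each of the 10 genes in TPM on a log axis (vertical) against the gene, ordered by mean level (horizontal); each point is 1 library and each line the mean of a group's 3 libraries. Vim sits near 3791 TPM in DMSO and Synm near 1.99 TPM, and within a gene the groups lie close together, with the NAT points of Gfap above the DMSO points.

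No member of the family passed the test in any comparison of groups. The test was limma-trend on log2(TPM + 1) across all 13839 genes, two-sided, with Benjamini-Hochberg adjustment and a threshold of 0.05 on the adjusted p. For NAT against DMSO 0 of 10 genes were called, where 0.0289% of all tested genes (4) were called. For P7C3-A20 against DMSO 0 of 10 were called, with 0.0217% of all genes (3), and for NAT against P7C3-A20 0 of 10, with 0% (0). At an unadjusted p under 0.05 the counts were 1 of 10 for NAT over DMSO (11.7% of all genes), 0 of 10 for P7C3-A20 over DMSO (15.9%) and 1 of 10 between the compounds (15.8%). The limma voom test on recovered reads also called 0 of 10 in each comparison, with 1, 0 and 2 genes at an unadjusted p under 0.05, while over all genes it called 27, 251 and 337 of 13837. Signs were mixed. Of the 10 log2 fold changes, 5 were positive with NAT relative to DMSO, 6 with P7C3-A20 relative to DMSO and 4 with NAT relative to P7C3-A20. Their medians were 0.0032, 0.020 and -0.0065, beside 0.030, 0.015 and 0.011 over all tested genes. The comparisons share groups of libraries, so they are not independent of each other.

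**Figure D2:**
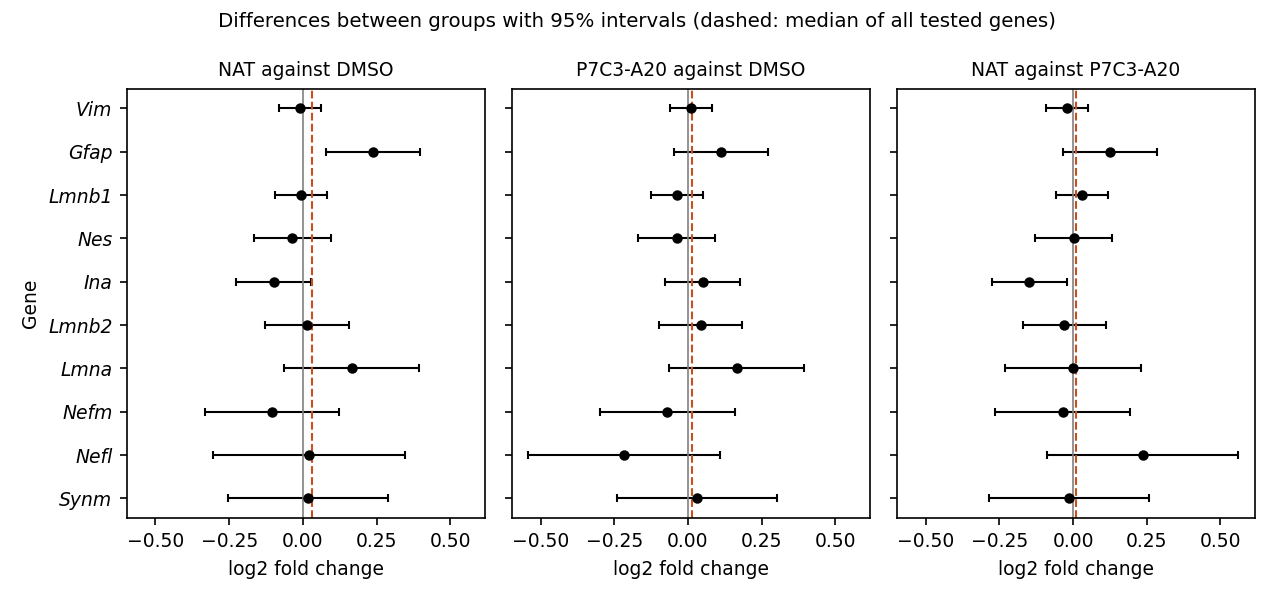
Difference between groups as log2 fold change on the log2(TPM + 1) scale (horizontal) for each gene (vertical) in the 3 comparisons; points are limma estimates, bars 95% intervals, and the dashed line the median of all 13839 tested genes. The interval of Gfap for NAT against DMSO (0.08 to 0.40) and that of Ina for NAT against P7C3-A20 (-0.28 to -0.02) leave out 0, although neither passed after adjustment.

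Of the 10 genes Gfap had the lowest p for NAT against DMSO. Its level was 787, 768 and 909 TPM in the 3 DMSO libraries, 931, 1031 and 939 TPM with NAT, and 928, 927 and 807 TPM with P7C3-A20. Every NAT library was above every DMSO library and above every P7C3-A20 library, while DMSO and P7C3-A20 overlapped. Groups without overlap in the higher direction were seen for 1 of the 10 genes in NAT against DMSO (14.1% of all tested genes) and for 0 of the 10 in P7C3-A20 against DMSO (13.1%), both shares near the background. Mean Gfap levels in DMSO, NAT and P7C3-A20 were 821 ± 76.4, 967 ± 55.3 and 888 ± 69.4 TPM (SD, n = 3 each). The log2 fold change of Gfap for NAT against DMSO was 0.24 ± 0.07 (SE), a 1.18-fold difference with a 95% interval of 1.06 to 1.32, and limma's unadjusted p was 0.0071 and its adjusted p 0.285. For P7C3-A20 against DMSO it was 0.11 ± 0.07 with an interval of -0.05 to 0.27 (limma adjusted p = 0.465). Between the compounds it was 0.12 ± 0.07, with an interval of -0.03 to 0.28 (limma adjusted p = 0.416). The P7C3-A20 value ran from 0.039 with the GC trend removed to 0.19 without DMSO replicate 3, and the value between the compounds from 0.058 without P7C3-A20 replicate 3 to 0.17 with the GC trend removed. With at least 13383 reads in every library, the counting error of Gfap was small (0.801% in DMSO) beside the spread between DMSO libraries (a coefficient of variation of 9.30%), so depth did not limit the Gfap comparison.

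Vim, the main filament gene of these cultures by level, differed little between libraries. It was at 3772, 3755 and 3846 TPM in DMSO, 3675, 3843 and 3782 TPM with NAT, and 3791, 3862 and 3797 TPM with P7C3-A20. The groups overlapped, and their means were 3791 ± 48.3, 3767 ± 84.8 and 3817 ± 39.4 TPM (SD, n = 3 each). The NAT minus DMSO log2 fold change was -0.0095 with an interval of -0.08 to 0.06 (limma adjusted p = 0.929), and for P7C3-A20 against DMSO it was 0.0098 (limma adjusted p = 0.910).

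Nes, the filament gene used as a marker of neural stem cells, had overlapping groups as well. Its levels were 219.5, 213 and 195 TPM in DMSO, 209.8, 199 and 203 TPM with NAT, and 197, 191 and 224 TPM with P7C3-A20. The highest single value belonged to P7C3-A20 replicate 3, which had the lowest Gfap of its group. The log2 fold change was -0.036 for NAT against DMSO (interval -0.17 to 0.10, limma adjusted p = 0.844) and -0.038 for P7C3-A20 against DMSO (limma adjusted p = 0.790).

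Synm was the lowest of the 10, at 1.83 to 2.29 TPM. It was read 67 to 104 times per library, which gave a counting error of 11.7% in DMSO, larger than the coefficient of variation of 6.32% between the DMSO libraries. The 3 groups overlapped at 1.99 ± 0.126, 2.03 ± 0.0838 and 2.06 ± 0.230 TPM (SD, n = 3 each, in the order DMSO, NAT, P7C3-A20). The interval of its log2 fold change for NAT against DMSO ran from -0.25 to 0.29, so the data did not exclude a difference within that span.

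The neuronal filament genes were expressed at low levels next to Vim and Gfap. Ina was the highest of them, at 25.6, 26.4 and 27.0 TPM in DMSO, 22.98, 24.4 and 26.3 TPM with NAT, and 26.5, 28.4 and 27.03 TPM with P7C3-A20. The NAT libraries lay below all P7C3-A20 libraries and overlapped with DMSO. Such a lack of overlap in the lower direction was found for 1 of the 10 genes in NAT against P7C3-A20 (8.35% of all tested genes), and for 0 of the 10 in NAT against DMSO (4.89%) and in P7C3-A20 against DMSO (7.49%). The log2 fold change of Ina between the compounds was -0.15 ± 0.06 (SE), with an interval of -0.28 to -0.02, an unadjusted p of 0.0257 and an adjusted p of 0.264 in limma. Against DMSO it was -0.10 ± 0.06 with NAT (limma adjusted p = 0.520) and 0.05 with P7C3-A20 (limma adjusted p = 0.702).

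Nefl was at 2.81, 4.79 and 3.98 TPM in DMSO, 3.98, 3.56 and 4.04 TPM with NAT, and 2.87, 3.14 and 3.38 TPM with P7C3-A20. The DMSO libraries covered the whole range of both compounds, and the NAT libraries lay above all P7C3-A20 libraries. With Gfap, Nefl made 2 of the 10 genes without overlap in the higher direction for NAT against P7C3-A20, where 13.3% of all tested genes had none. These values rested on 26 to 41 reads per library, a counting error of 16.7% in DMSO beside a coefficient of variation of 25.7%. The log2 fold change was 0.24 ± 0.15 for NAT against P7C3-A20 (interval -0.09 to 0.56, limma adjusted p = 0.455) and -0.22 ± 0.15 for P7C3-A20 against DMSO (interval -0.54 to 0.11, limma adjusted p = 0.492). Leaving out DMSO replicate 1 took the latter to -0.38, and leaving out DMSO replicate 2 took it to -0.080.

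Nefm, its partner chain in neurofilaments, was at 4.83, 5.21 and 5.11 TPM in DMSO, 4.87, 4.29 and 4.73 TPM with NAT, and 4.895, 4.14 and 5.32 TPM with P7C3-A20. All groups overlapped, and the log2 fold change was -0.10 for NAT against DMSO (interval -0.33 to 0.12, limma adjusted p = 0.721). Several of these genes share exon sequence with a gene on the opposite strand in GENCODE vM21: Nefl with Nefm over 1108 bases, Ina with Nt5c2 over 456 bases and Synm with Gm45102 over 426 bases and with Ttc23 over 84 bases. The library kit is not stated to mark strand, so reads from such stretches cannot be told apart, and the low Nefl and Nefm values are uncertain for that reason too. The heavy chain Nefh had 0 to 4 reads per library and peripherin (Prph) 0 to 6.

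Among the lamins Lmnb1 accounted for most transcripts, with 85.6% to 87.5% of the summed lamin TPM in the 9 libraries. Its levels were 234, 233 and 218 TPM in DMSO, 222, 228 and 231 TPM with NAT, and 216, 218 and 233 TPM with P7C3-A20. The groups overlapped, and the log2 fold change was -0.0075 for NAT against DMSO (interval -0.10 to 0.08, limma adjusted p = 0.960) and -0.04 for P7C3-A20 against DMSO (interval -0.13 to 0.05, limma adjusted p = 0.671). Lmnb2, the other B-type lamin, was at 22.3, 20.5 and 22.6 TPM in DMSO, 22.2, 23.5 and 20.4 TPM with NAT, and 21.6, 23.1 and 22.7 TPM with P7C3-A20. Its groups overlapped as well (limma adjusted p = 0.952 for NAT and 0.776 for P7C3-A20 against DMSO).

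Lmna, the A-type lamin gene, was at 11.1, 14.05 and 10.4 TPM in DMSO, 12.5, 12.9 and 14.6 TPM with NAT, and 12.4, 13.5 and 14.1 TPM with P7C3-A20. Of the DMSO libraries, replicates 1 and 3 lay below all 6 treated libraries and replicate 2 within them. Group means were 11.9 ± 1.93, 13.3 ± 1.13 and 13.3 ± 0.836 TPM (SD, n = 3 each, in the order DMSO, NAT, P7C3-A20). The log2 fold change was 0.17 ± 0.10 with NAT (interval -0.07 to 0.40, limma adjusted p = 0.554) and 0.17 with P7C3-A20 (interval -0.06 to 0.40, limma adjusted p = 0.461). Without DMSO replicate 2 both were 0.28, and without DMSO replicate 3 both were 0.084.

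Ratios between members were formed within each library, where scaling between libraries cancels. The Gfap to Vim ratio was 0.209, 0.205 and 0.236 in DMSO, 0.253, 0.268 and 0.248 with NAT, and 0.245, 0.240 and 0.213 with P7C3-A20. The NAT ratios lay above those of both other groups. The difference in mean log2 ratio was 0.25 for NAT minus DMSO and 0.14 for NAT minus P7C3-A20, each with an exact permutation p of 0.1 (two-sided), the smallest that 3 against 3 libraries can give, and 0.36 after adjustment over the 9 ratio tests. For P7C3-A20 minus DMSO it was 0.10, with an exact permutation p of 0.2. The Gfap to Nes ratio had geometric means of 3.92 in DMSO, 4.74 with NAT and 4.35 with P7C3-A20, and its groups overlapped (NAT minus DMSO 0.27 in log2, exact permutation p = 0.3). The Lmna to Lmnb1 ratio, A-type against B-type lamin, had geometric means of 0.0515, 0.0586 and 0.0599, again with overlap (0.19 in log2 for NAT minus DMSO, exact permutation p = 0.3, and 0.22 for P7C3-A20 minus DMSO, exact permutation p = 0.2).

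**Figure D3:**
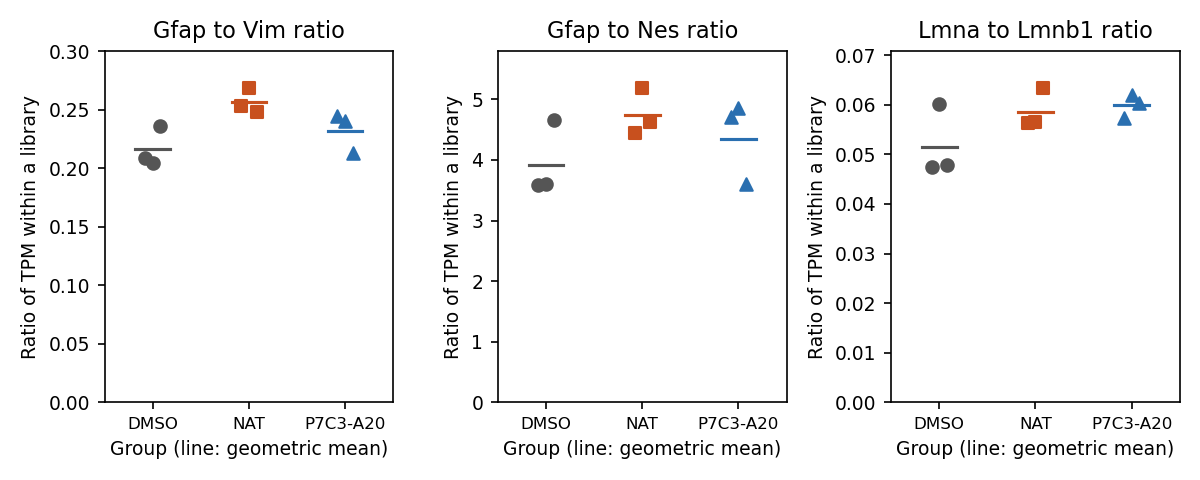
Ratio of TPM within a library (vertical, linear from 0) by group (horizontal) for Gfap to Vim, Gfap to Nes and Lmna to Lmnb1; points are libraries and lines geometric means. The NAT points of Gfap to Vim (0.248 to 0.268) lie above all others, and the groups of the other ratios overlap.

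Other astrocyte genes were set beside Gfap in each library. The 8 listed astrocyte markers (Aqp4, Aldh1l1, Slc1a3, Slc1a2, Gja1, S100b, Aldoc and Fgfr3, none of them at 0) summed to 6703 to 6919 TPM in DMSO, 7060 to 7181 TPM with NAT and 6282 to 7070 TPM with P7C3-A20. As with Gfap, all NAT libraries were above all DMSO libraries. Slc1a3, at 2128 TPM on average in DMSO, counted in this sum and in that of the neural progenitor markers. The neural progenitor markers had sums of 15024 to 15511 TPM in DMSO, 14399 to 15009 TPM with NAT and 13441 to 14381 TPM with P7C3-A20. No groups overlapped in this sum and DMSO was the highest, but Fabp7 made up most of it (12202 of 15313 TPM on average in DMSO). Their mean log2 level, which weights genes equally, overlapped between all groups. It was 7.76 to 7.88 in DMSO, 7.75 to 7.78 with NAT and 7.76 to 7.80 with P7C3-A20. The oligodendrocyte lineage markers summed to 3249.5 to 3384, 3092 to 3275 and 3224 to 3777 TPM in the same order, with overlap between all groups. Olig1 made up most of this sum (2158 of 3309 TPM on average in DMSO). Their mean log2 level was 6.36 to 6.46 in DMSO, 6.34 to 6.37 with NAT and 6.49 to 6.60 with P7C3-A20. By that measure all P7C3-A20 libraries were above all others, and DMSO and NAT overlapped. Over the 9 libraries Gfap correlated with the mean log2 level of the 8 astrocyte markers. Pearson's r was 0.82 (exact permutation p = 0.00432, adjusted p = 0.130 over 30 relations of 10 genes with 3 marker lists). Spearman's rho was 0.90 (exact permutation p = 0.00203, adjusted p = 0.0608). Without the 2 libraries farthest from the median, DMSO replicate 1 and P7C3-A20 replicate 3, r was 0.94, and after group means were removed it was 0.79. The relation did not pass the adjustment, and the part of these cell types in the Gfap values was not tested.

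**Figure D4:**
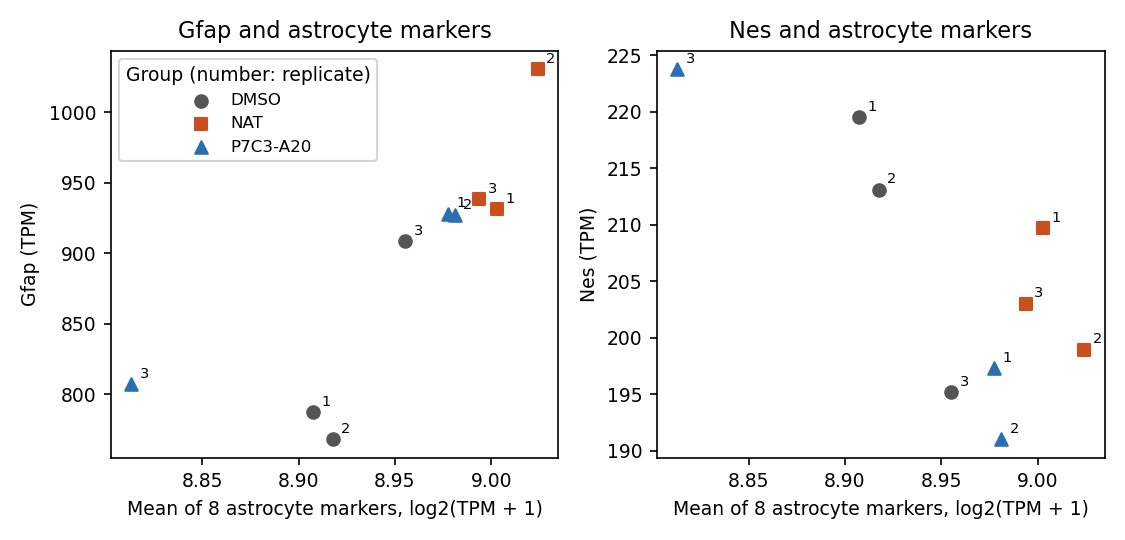
Gfap (left) and Nes (right) in TPM against the mean of 8 astrocyte markers in log2(TPM + 1); each point is 1 library, numbered by replicate, with shape and colour for its group. Gfap is higher where the markers are higher (r = 0.82 over 9 libraries), Nes is lower (r = -0.74), and P7C3-A20 replicate 3 stands to the left of the rest in both plots.

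Nes had a negative correlation with the same astrocyte markers, with r = -0.74 (exact permutation p = 0.0162, adjusted p = 0.162) and rho = -0.52 (exact permutation p = 0.162, adjusted p = 0.469). Without the 2 libraries farthest from the median r was -0.28, so the pooled relation rests on DMSO replicate 1 and P7C3-A20 replicate 3. With group means removed it was -0.90. Ina had one with genes of dividing cells (8 genes, Mki67 and Top2a among them), with r = -0.74 (exact permutation p = 0.0159, adjusted p = 0.162) and rho = -0.85 (exact permutation p = 0.00607, adjusted p = 0.0911). The relation had r = -0.79 without the 2 farthest libraries and -0.43 with group means removed. The dividing-cell genes summed to 729 to 866 TPM in DMSO, 817 to 862 TPM with NAT and 688 to 765 TPM with P7C3-A20, so the compounds that did not overlap in Ina did not overlap in these genes either. The neuron markers overlapped between the groups in their sums (753 to 783, 739 to 782 and 719.5 to 772 TPM in DMSO, NAT and P7C3-A20), to which Map2 contributed most. Their mean log2 level over the 7 tested genes, which weights genes equally, was 4.53 to 4.61 in DMSO, 4.51 to 4.56 with NAT and 4.60 to 4.62 with P7C3-A20, so that the compounds did not overlap and differed in the same direction as Ina. Over the 9 libraries Ina and this mean had r = 0.48 (exact permutation p = 0.199, adjusted p = 0.459) and rho = 0.68 (exact permutation p = 0.0503, adjusted p = 0.252). For Ina r was 0.84 without the 2 farthest libraries and -0.36 with group means removed. Nefl had the opposite sign, with r = -0.69 (exact permutation p = 0.0456, adjusted p = 0.304) and rho = -0.70 (exact permutation p = 0.0433, adjusted p = 0.252). For Nefl r was -0.47 without the 2 farthest libraries and -0.59 with group means removed. Nefm had r = 0.04 (exact permutation p = 0.918, adjusted p = 0.970). The part of dividing cells or of neurons in the Ina difference was not tested.

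Genes that act on filaments or the lamina were examined in 5 lists. None of their tested genes was called in any comparison, by the same limma test. Over all tested genes the median log2 fold change was 0.030 for NAT against DMSO and 0.015 for P7C3-A20 against DMSO. It was 0.011 for NAT against P7C3-A20. These medians are positive, so positive signs were the more common ones over all tested genes too. Of 20 other filament genes 7 were expressed enough to test. The highest in DMSO were Bfsp2 (34.2 ± 1.74 TPM), a filament protein best known from the lens, Iffo1 (34.0 ± 3.23 TPM), a nuclear filament family protein, and the keratin Krt10 (9.67 ± 0.251 TPM, SD, n = 3 each). The keratin genes Krt5, Krt15 and Krt19 were listed at 0 in all 9 libraries, and the muscle filament gene Des had 2 to 7 reads. For P7C3-A20 against DMSO 6 of the 7 log2 fold changes were positive, with a median of 0.093, and Iffo1 had the lowest p (0.22 ± 0.07, limma adjusted p = 0.178). For NAT against DMSO 3 of the 7 were positive, with a median of -0.0096, and the keratin Krt1, below 1 TPM on average in DMSO, had the lowest p (-0.38 ± 0.18, limma adjusted p = 0.446). Krt1 was also lowest in p between the compounds (-0.47 ± 0.18, limma adjusted p = 0.264).

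Of 12 genes for filament linker proteins and their partners 8 were tested, the small heat shock protein genes Cryab and Hspb1 among them. With NAT against DMSO 7 were positive with a median of 0.079, and with P7C3-A20 against DMSO 4 were positive with a median of -0.020. Dtnb (beta-dystrobrevin) was the lowest in p for NAT (0.13 ± 0.06, limma adjusted p = 0.427), and Dmd (dystrophin) for P7C3-A20 (-0.08 ± 0.06, limma adjusted p = 0.532). Between the compounds it was the spectraplakin Macf1, a microtubule-actin linker, at 123 TPM on average with NAT and 111 TPM with P7C3-A20 (0.16 ± 0.06, limma adjusted p = 0.264).

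All 18 listed kinases, phosphatases, ligases and proteases that act on filaments, counted with the deiminase gene Padi2, were tested. Of these, 14 were positive for NAT against DMSO (median 0.071) and 12 for P7C3-A20 against DMSO (median 0.032). The kinase gene Camk2b had the lowest p in both, at 83.7 ± 2.01, 93.4 ± 1.60 and 95.6 ± 1.14 TPM in DMSO, NAT and P7C3-A20 (SD, n = 3 each). Its log2 fold change was 0.16 ± 0.03 with NAT (limma adjusted p = 0.210) and 0.19 ± 0.03 with P7C3-A20 (limma adjusted p = 0.139), and limma voom on recovered reads called the latter (0.17, adjusted p = 0.0202). Cdk5, a kinase of neurons that phosphorylates neurofilaments, differed most between the compounds in p. It was at 85.2 ± 2.15 TPM in NAT libraries and 101 ± 4.30 TPM in P7C3-A20 libraries, a log2 fold change of -0.24 ± 0.05 (limma adjusted p = 0.168), which voom called (-0.25, adjusted p = 0.0115).

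The 6 lamin processing genes were all tested. They encode enzymes that farnesylate, cleave or methylate prelamins (Fnta, Fntb, Rce1, Zmpste24 and Icmt) and Narf, which binds prelamin A. Their medians were -0.0052 for NAT against DMSO (3 positive) and -0.022 for P7C3-A20 against DMSO (2 positive). Zmpste24, the protease that cleaves prelamin A, was at 69.8 ± 0.709 TPM in DMSO and 77.3 ± 2.90 TPM with NAT (0.15 ± 0.05, limma adjusted p = 0.350). Rce1, a CaaX protease, was at 28.4 ± 0.207 TPM in DMSO and 32.7 ± 2.03 TPM with P7C3-A20 (0.20 ± 0.06, limma adjusted p = 0.178) and differed between the compounds by -0.23 ± 0.06 (limma adjusted p = 0.182).

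Of 19 genes for proteins of the inner nuclear membrane and its links 17 were tested. Relative to DMSO, 14 were positive with NAT (median 0.069) and 8 with P7C3-A20 (median -0.00024). Between the compounds 15 were positive, that is higher with NAT (median 0.066). Tmem43, an emerin-binding membrane protein gene, had the lowest p for NAT (74.1 ± 3.61 to 83.1 ± 1.65 TPM, 0.16 ± 0.04, limma adjusted p = 0.249). Sun2, a gene of the complex that links the nucleus to the cytoskeleton, had the lowest for P7C3-A20 (48.6 ± 1.20 to 55.0 ± 1.24 TPM, 0.18 ± 0.04, limma adjusted p = 0.153). Nrm (nurim) had the lowest between the compounds (0.19 ± 0.06, limma adjusted p = 0.206).

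**Figure D5:**
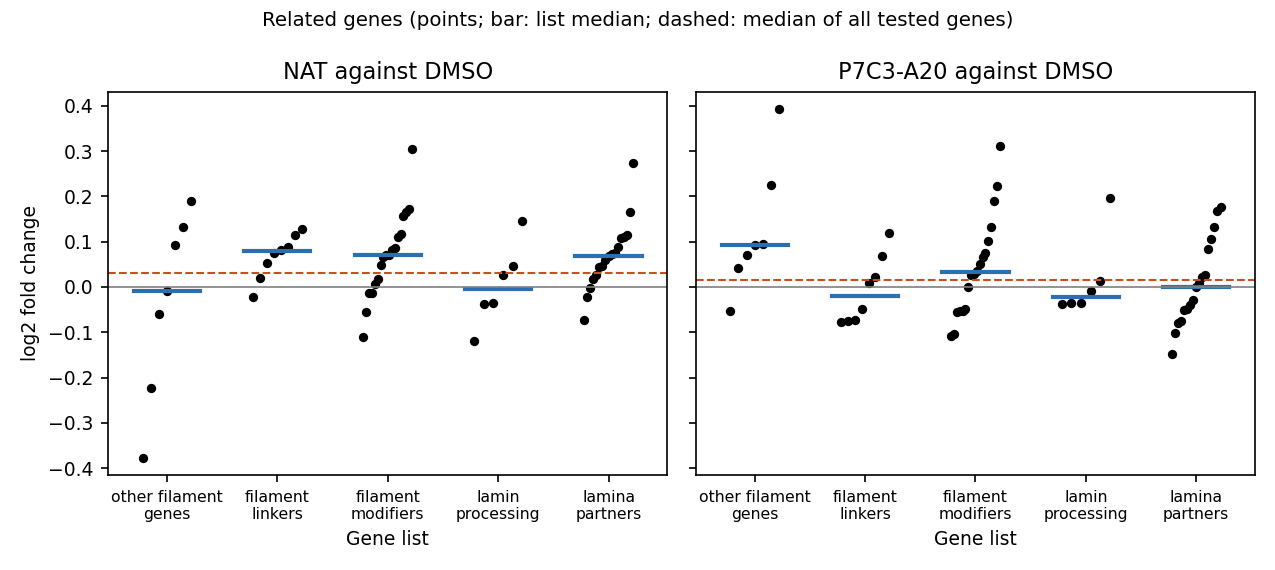
Log2 fold change on the log2(TPM + 1) scale (vertical) of the tested genes of 5 related lists (horizontal) for NAT and P7C3-A20 against DMSO; points are genes, bars list medians and the dashed line the median of all tested genes. The filament linker and lamina partner lists have medians of 0.079 and 0.069 with NAT and of -0.020 and -0.00024 with P7C3-A20, and no gene shown was called.

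Genes with the most similar profile over the 9 libraries were sought for a member of each class, by the root mean square difference between log2(TPM + 1) profiles centred on their own means, among genes of at least 10 TPM on average. For Gfap these included Mertk (0.0327) and Iqsec1 (0.0524), where the median over 10023 genes was 0.141 and the profile of Gfap itself had a root mean square of 0.133. For Nefl they were St6galnac5 (0.109), Ccnt1 (0.109) and Ccdc117 (0.112), with a median of 0.202 over 10024 genes. For Lmnb1, a flat profile with a root mean square of 0.0444, they were Psmb7 (0.0199), Maged2 (0.0234) and Tsn (0.0251), with a median of 0.0898. The profiles share libraries and depth, and the distances for Nefl were larger than those for Gfap.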

How the data were processed

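RNA was measured in 9 libraries built with an Illumina TruSeq RNA kit from total RNA, 3 per group, per the labels' protocols. The deposited table holds TPM made by the authors for 23420 symbols, and each column sums to 1000000. Bowtie 0.12.2 and the builds mm8 and mm9 are named in the submitters' processing notes without a role. The sources used here do not give the read counter, annotation, strand setting or filters. Whole reads were recovered from the steps of the TPM values for 19300 of 19302 genes with a tolerance of 0.001 (not for Rn45s and Malat1), gave the depth and counting errors, and entered only the voom alternative.

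Genes reaching 1 TPM in 3 or more libraries were compared with limma-trend (limma 3.58.1, R 4.3.3) on log2(TPM + 1), which understates the change of low genes. All 9 libraries entered 1 fit with group as the only factor and 6 residual degrees of freedom. Genes were called below a Benjamini-Hochberg adjusted p of 0.05 over all genes tested. Ratios and correlations used exact permutation tests (scipy 1.17.1). Scripts were tested on simulated data.

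The members, the related lists and the markers were chosen with earlier results of these data known. The text names all 10 members, the gene with the lowest unadjusted p of each related list in each comparison, the 3 highest and the undetected other filament genes, and the 3 nearest profiles of Gfap, Nefl and Lmnb1, of which 1 is not reported here. Alternatives changed the pseudocount, filter, scaling, GC trend, variance moderation, unit, libraries in the fit and replicate block. Promoters and exon overlaps came from RefSeq GRCm38.p6 and GENCODE vM21 and were not used for any value in TPM.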

Additional observations from a re-analysis of the deposited data

How the results depend on the processing

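In all 57 alternatives, 19 per comparison, 0 of the 10 genes were called. The lowest adjusted p of any member was 0.0880 for NAT against DMSO (Gfap, limma voom), 0.185 for P7C3-A20 against DMSO (without DMSO replicate 3) and 0.200 for NAT against P7C3-A20 (limma voom). The number of calls over all genes did depend on the unit: limma-trend on TPM called 4, 3 and 0 genes and limma voom on recovered reads 27, 251 and 337. The log2 fold change of Gfap for NAT against DMSO stayed between 0.19 and 0.31, with an unadjusted p under 0.05 in 19 of 19 alternatives and adjusted p from 0.0880 to 0.548. That of Ina for NAT against P7C3-A20 lay between -0.197 and -0.103, with an unadjusted p under 0.05 in 14 of 19.

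Of 564 log2 fold changes of members recomputed, 510 kept their sign and 54, in 16 of 30 results, did not. For NAT against DMSO, values of the other sign were Lmnb2 -0.0137, Nefl -0.00994 and Synm -0.00997 with the GC trend removed, Lmnb2 -0.0221, Nefl -0.0120 and Synm -0.00699 with quantile normalization, and Lmnb2 -0.0180 and Synm -0.00598 with voom. For P7C3-A20 against DMSO they were Lmnb2 -0.0478, Ina -0.0238 and Synm -0.00245 with the GC trend removed, and Vim -0.00730 with voom. With quantile normalization Vim was at 0, which has no sign and is counted among the 54. For NAT against P7C3-A20 the values of the other sign were Lmnb2 0.0342, Nefm 0.0291 and Lmna 0.0219 with the GC trend removed, Nes -0.00718 with quantile normalization and Nes -0.0115 with voom. The cause was not tested.

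Leaving out each library in turn moved Lmna between 0.084 and 0.28 for each compound against DMSO, and Nefl between -0.38 and -0.080 for P7C3-A20 against DMSO. Over all alternatives Gfap lay between 0.039 and 0.19 for P7C3-A20 against DMSO and between 0.058 and 0.17 for NAT against P7C3-A20. Ranges that crossed 0 when single libraries were left out were, for NAT against DMSO, -0.145 to 0.156 for Nefl, -0.0415 to 0.0112 for Lmnb1, -0.0175 to 0.0383 for Synm, -0.0312 to 0.0663 for Lmnb2 and -0.0240 to 0.00813 for Vim. For P7C3-A20 against DMSO the ranges were -0.0241 to 0.0843 for Synm, -0.136 to 0.0128 for Nefm and -0.106 to 0.00764 for Nes. For NAT against P7C3-A20 they were -0.0436 to 0.0701 for Nes, -0.0634 to 0.0425 for Lmna, -0.118 to 0.0311 for Nefm, -0.0665 to 0.0419 for Synm, -0.0743 to 0.0233 for Lmnb2, and -0.0121 to 0.202 for the Gfap to Nes ratio.

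Same-numbered libraries of 2 groups had correlations of their deviations from -0.062 to 0.067, so the replicate numbers were not shown to pair libraries. With the replicate number as a block 0 of 10 members were called in each comparison, and GC removal together with the block gave the same log2 fold changes as GC removal alone, with other p-values. With a minimum of 5 TPM, Nefl and Synm were not tested. Of 235 values of related genes 2 passed the threshold where the main test had not, both with voom (Camk2b and Cdk5, given above). Depth limits Nefl, Synm and Nefm, each read at most 104 times per library.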
